A study of Mus musculus with 6 samples.

Results

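Ly6CLow is a class of myeloid cells that the authors named in a single-cell survey of immune cells of the mouse brain. The class was taken as the deposited cell annotation lists it, and it holds 634 of 13052 cells. Its label was checked against RNA and against surface antibodies, and the class was asked for its content of nonclassical monocytes and dendritic cells. It proved to be a mixture: 425 cells (67.0%) fell into RNA sub-clusters led by monocyte, dendritic cell, macrophage or proliferation genes, and 168 cells (26.5%) into sub-clusters led by lymphocyte genes. The remaining 41 cells stayed unnamed. These 41 and 2 of the lymphocyte sub-clusters, of 64 and 40 cells, were shallow, with median totals of at most 1260 UMIs (RNA molecules) per cell, and whether the shallow sub-clusters are cell types of their own was not tested.

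The study used CITE-seq, in which antibodies that carry a DNA barcode are read together with the RNA of the same cell. Whole brains of female C57BL/6 mice, perfused with saline, were digested with papain, and mononuclear cells were enriched on a Percoll gradient. The 4 groups were young controls and young antibiotic-treated mice (12 weeks old) and aged controls and aged antibiotic-treated mice (72 weeks old). Controls received vehicle and kept their gut microbiota, and antibiotics depleted it in the other arm. Each group held 6 mice in 3 pools, so that 24 mice gave 12 pools. The pool is the replicate throughout, and p-values measure the spread between pools. The 6 young pools shared 1 well of the 10x Genomics chip and the 6 aged pools another, so age and well cannot be told apart. Controls carried hashtags 1 to 3 and antibiotic pools hashtags 4 to 6, so hashtag and arm cannot be told apart either.

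Mouse monocytes are commonly divided by the surface protein Ly6C. Classical, Ly6C-high monocytes enter inflamed tissue, while nonclassical, Ly6C-low monocytes patrol the inner wall of small vessels and depend on the transcription factor Nr4a1. Conventional dendritic cells also carry little Ly6C; those of type 2 (cDC2) present antigen on MHC class II to CD4 T cells and are found in the meninges and choroid plexus around the brain. Border-associated macrophages (BAM) live in those same borders, and microglia in the brain tissue itself.

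The surface values that separate Ly6CLow cells from their neighbours, and its sub-clusters from one another, rest on 7 antibodies. Each is identified by the barcode below, 15 bases long, all of which is matched and is therefore in capitals. The first 4 recognise the integrins CD11b and CD11c, the Ly6C antigen and the MHC class II proteins I-A/I-E, and the other 3 the chemokine receptor CX3CR1, the checkpoint ligand PD-L1 and the ectoenzyme CD38.
CD11b: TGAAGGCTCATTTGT
CD11c: GTTATGGACGCTTGC
Ly6C: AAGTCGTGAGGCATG
I-A/I-E: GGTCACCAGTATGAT
CX3CR1: CACTCTCAGTCCTAT
PD-L1: TCGATTCCACCAACT
CD38: CGTATCCGTCTCCTA

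Ly6CLow cells numbered 58, 41 and 50 in the young control pools, 43, 33 and 49 in the young antibiotic pools, 35, 72 and 86 in the aged control pools and 48, 69 and 50 in the aged antibiotic pools. Their median depth was 11367.5 raw UMIs per cell in the young well and 7274 in the aged well. The wells differed more in antibody tags, with a median of 6985.5 per Ly6CLow cell in the young well and 603.5 in the aged well. Depth bears on the RNA values, which the authors corrected for it. In the 126 Ly6CLow cells with fewer than 2000 raw UMIs the median corrected total was 4.59 times the raw total, and Ttr, a choroid plexus gene, was above 0 in 100% of them. In the 508 deeper cells the ratio was 0.709. A total of 59 cell barcodes occurred in both wells; 8 Ly6CLow cells carried such a barcode, and in 0 cases were both cells Ly6CLow.

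The marker genes were compared first. RNA levels are the mean corrected UMI value per cell in a pool, averaged over the 12 pools (± SD, n = 12). Because the authors' classes may rest on the same RNA and antibodies, the comparisons between classes are descriptions without a test. Ly6CLow cells held nonclassical monocyte genes at levels far above those of BAM and microglia. Of the 2 dendritic cell genes below, Itgax had all pools above both classes. Cd209a had a higher mean than in both, but its lowest Ly6CLow pool (0.899) lay below the highest BAM pool (0.984).

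Ace, the angiotensin-converting enzyme of nonclassical monocytes, was 0.810, 0.829 and 1.02 in the young control pools, 0.953, 1.15 and 0.551 in the young antibiotic pools, 0.971, 0.556 and 1.08 in the aged control pools and 0.438, 0.971 and 0.440 in the aged antibiotic pools. The 4 groups overlapped. The mean was 0.814 ± 0.255 in Ly6CLow cells, 0.0319 in BAM and 0.0101 in microglia, and all Ly6CLow pools lay above all BAM and microglia pools. In Ly6CHigh cells it was 0.682 ± 0.851, with pools from 0 to 3.00 that enclosed the whole Ly6CLow range; those pools held as few as 6 cells.

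Treml4, a myeloid receptor of nonclassical monocytes, was 0.810, 0.829 and 0.840 in the young control pools and 0.465, 0.758 and 0.265 in the young antibiotic pools. It was 0.771, 0.389 and 0.547 in the aged control pools and 0.313, 0.739 and 0.280 in the aged antibiotic pools. The young control pools lay close together and above all others. The mean was 0.584 ± 0.231 against 0.393 ± 0.479 in Ly6CHigh cells, whose pools ran from 0 to 1.67. It was 0.00208 in BAM and 0.00322 in microglia.

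Spn encodes CD43, a mucin of leukocytes that is abundant on nonclassical monocytes. It was 1.34, 1.02 and 1.34 in the young control pools, 1.12, 0.879 and 1.02 in the young antibiotic pools, 1.17, 0.736 and 1.15 in the aged control pools and 0.979, 1.13 and 0.660 in the aged antibiotic pools. The mean of 1.05 ± 0.212 compared with 0.653 ± 0.362 in Ly6CHigh cells, 0.0379 in BAM and 0.00811 in microglia. Lymphocytes held it as well, at 0.625 in CD8+ cells and 0.694 in ILCs (innate lymphoid cells), so Spn alone did not mark monocytes here.

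Cd209a, a lectin of cDC2, was 4.33, 6.49 and 3.36 in the young control pools and 4.49, 5.06 and 4.84 in the young antibiotic pools. It was 2.66, 1.72 and 4.50 in the aged control pools and 1.77, 0.899 and 1.70 in the aged antibiotic pools. All aged antibiotic pools lay below all young pools, while aged control pool 3 reached the young range. The mean of 3.48 ± 1.72 compared with 0.492 ± 0.661 in Ly6CHigh cells (pools from 0 to 2.00), 0.436 ± 0.267 in BAM and 0.00761 in microglia.

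Itgax, the gene of the dendritic cell integrin CD11c, was 0.638, 0.683 and 1.04 in the young control pools and 1.05, 0.545 and 0.694 in the young antibiotic pools. It was 0.657, 0.792 and 0.640 in the aged control pools and 0.563, 0.377 and 0.460 in the aged antibiotic pools. Its mean of 0.678 ± 0.203 compared with 0.165 ± 0.181 in Ly6CHigh cells, 0.0625 in BAM and 0.0456 in microglia. Pools of Ly6CLow cells lay above all pools of BAM and microglia and overlapped those of Ly6CHigh cells, which reached 0.5.

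**Figure D1:**
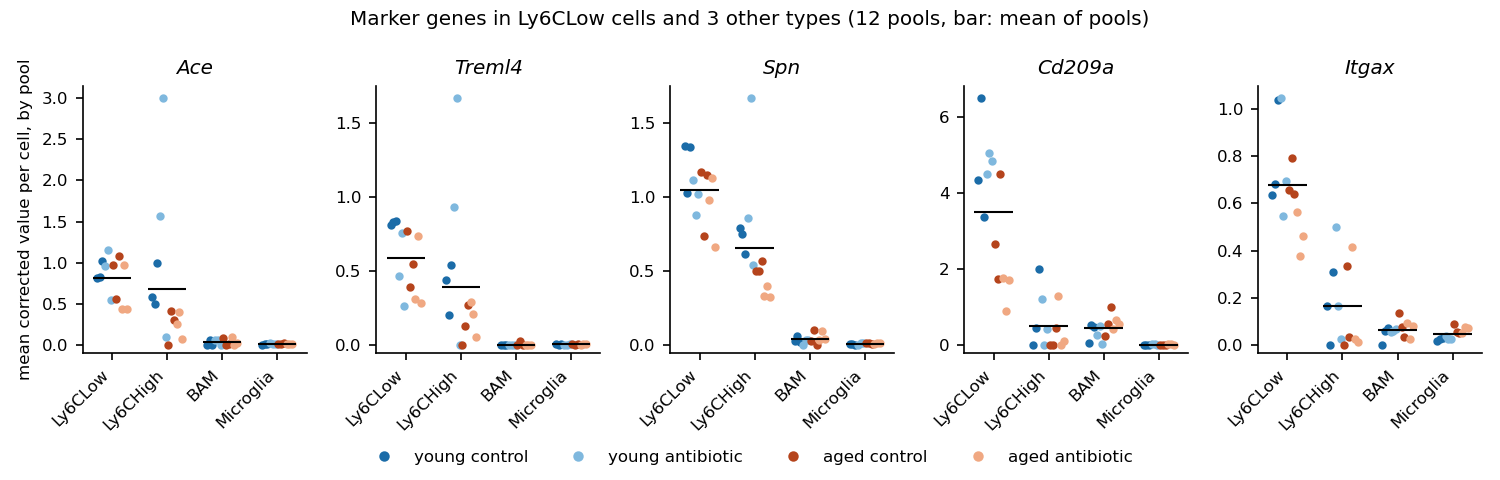
Each point is a pool's mean corrected value per cell (y axis, separate linear scale for each gene) in Ly6CLow, Ly6CHigh, BAM and Microglia cells (x axis), coloured by group, and the bar is the mean of 12 pools. Cd209a is highest in Ly6CLow cells (mean 3.48), while Ly6CHigh pools spread from 0 to 3.00 for Ace around the Ly6CLow mean of 0.814.

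Nonclassical monocyte markers and Cd209a were seldom seen in the same cell. Of the 634 Ly6CLow cells, 130 (20.5%) were above 0 for at least 2 of Ace, Treml4 and Spn, and 190 (30.0%) were above 0 for Cd209a, but only 7 (1.1%) met both conditions. Ace and Cd209a were seen together in 5 cells (0.789%), whereas Cd209a and Itgax were seen together in 126 (19.9%). None of the 5 genes was above 0 in 206 cells (32.5%). Among the 508 deeper cells the corresponding numbers were 128, 187 and 7, and 97 (19.1%) held none of the 5. Microglia had a median of 6934 raw UMIs per cell against 8926.5 in Ly6CLow cells. Their share of cells above 0 was 0.553% for Ace, 0.266% for Treml4, 0.585% for Spn, 0.532% for Cd209a and 3.32% for Itgax. Itgax was higher in every aged microglia pool (0.0498 to 0.0896) than in every young one (0.0163 to 0.0360), so its share is not a plain background value.

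The longer lists differed in how well they set the class apart. At least 2 of the 12 nonclassical monocyte genes were above 0 in 78.2% of Ly6CLow cells, but also in 93.6% of Ly6CHigh cells, 69.1% of ILCs, 68.0% of CD8+ cells and 33.0% of microglia, so this count was not a measure of nonclassical monocytes. At least 2 of the 4 shared dendritic cell genes (Flt3, Zbtb46, Itgax and Ciita) were above 0 in 30.6% of Ly6CLow cells, against 2.83% of Ly6CHigh cells, 6.13% of BAM and 0.117% of microglia. For the cDC2 list the shares were 44.6% in Ly6CLow cells, 16.2% in Ly6CHigh cells and 4.96% in microglia, but 54.0% in BAM, which share its lectin genes.

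Among the genes whose pools did not overlap, MHC class II genes were prominent where Ly6CLow cells lay above Ly6CHigh cells. Log2 differences between classes are means of the 12 differences within pools, so they are not the log of the ratio of the 2 means. Of 9030 genes, 48 had every Ly6CLow pool above every Ly6CHigh pool (0.532%) and 90 had every pool below (0.997%). The 8 furthest above among the 48 included H2-Eb1, H2-Ab1 and H2-Aa, which encode chains of MHC class II, and Cd74, its invariant chain. H2-Eb1 was 54.7 ± 16.8 in Ly6CLow and 8.52 ± 8.42 in Ly6CHigh cells, a difference of 3.42 on the log2 scale (pseudocount 0.05), and Cd74 was 148 against 27.5 (log2 2.94). H2-Oa (log2 2.68), an MHC class II regulator, the receptors Slamf9 (2.88) and Slamf7 (2.73), and the chemokine Cxcl16 (2.79) completed the 8. Furthest below were Chil3, a chitinase-like protein of classical monocytes (1.36 against 39.0, log2 -5.27), Ly6c2, which encodes Ly6C (0.429 against 11, log2 -4.80), Thbs1 (thrombospondin, -4.58) and Slpi (a protease inhibitor, -4.43). In the aged well 54.7% of Ly6CHigh cells had fewer than 2000 raw UMIs, against 31.7% of Ly6CLow cells, and the part of this gap in the differences was not tested.

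The marker lists gave the same picture by group. Of 11 classical monocyte genes 8 lay below Ly6CHigh cells without overlap, with a median log2 difference of -3.72 against 0.01 over all genes. Of 12 nonclassical monocyte genes 0 lay above or below without overlap, with a median of 0.86. For the 5 cDC2 genes that were measured the numbers were also 0, with a median of 1.92. In the shared dendritic cell list, 1 of 4 genes lay above, with a median of 1.72. Nonclassical monocyte genes thus did not separate Ly6CLow from Ly6CHigh cells pool by pool, whereas the lack of classical monocyte genes did.

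Against BAM, 285 of 9528 genes lay above without overlap (2.99%) and 298 below (3.13%). In the nonclassical monocyte list 11 of 12 genes lay above, with a median log2 difference of 3.39 against -0.09 over all genes. The dendritic cell lists had smaller medians. Of 4 shared dendritic cell genes 1 lay above and 0 below (median 1.11), and of 6 cDC2 genes measured 0 and 0 (median 0.50). For type 1 and migratory dendritic cells 0 of 6 and 0 of 7 lay on either side (medians -0.17 and 0.75). Of 7 plasmacytoid dendritic cell genes 0 lay above and 3 below (median 0.53). The genes furthest above were Plac8 (log2 5.30), a gene of monocytes and lymphocytes, the chemokine Ccl5 (4.97), the monocyte ribonuclease Ear2 (4.95), the transcription factor Bhlhe40 (4.59), the calcium-binding S100a4 (4.54), Klrd1 and Nkg7 (4.39 and 4.35), which are genes of NK and cytotoxic cells, and Pglyrp1 (4.17), a peptidoglycan receptor. Of 8 BAM genes 7 lay below (median -3.54). Pf4, a chemokine of border macrophages, was 0.364 against 8.48 (log2 -4.55), and the adhesion molecule Vcam1 (-4.39) and the chemokines Ccl12 (-4.15) and Ccl8 (-3.94) were next.

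Against microglia, 910 of 9619 genes lay above (9.46%) and 1425 below (14.8%). All 12 nonclassical monocyte genes lay above (median 3.58 against -0.23 over all genes), while 9 of 9 microglial genes lay below (median -3.70). Of 5 cDC2 genes 4 lay above and 1 below (median 4.16), and of 4 shared dendritic cell genes 3 lay above and 0 below (median 2.71). The other dendritic cell lists were mixed: 1 above and 2 below of 6 type 1 genes (median -0.47), 1 and 1 of 7 migratory genes (0.61), and 2 and 2 of 8 plasmacytoid genes (0.55). MHC class II led again, with H2-Eb1 at log2 8.16, H2-Aa at 8.06, H2-Ab1 at 7.40 and Cd74 at 7.34. The lectin Mgl2, a cDC2 gene, followed at 6.39, then Tnip3 (6.25), an NF-kB inhibitor, S100a4 (5.90) and the protease Napsa (5.87). The microglial genes Slc2a5 (-4.05), Slc1a3 (-4.00), Nav3 (-3.95) and Tmem119 (0.501 against 8.12, log2 -3.95) were lowest.

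The Ly6C antibody separated the classes as their names say. In the young well the Ly6C antibody gave 237 ± 6.55 tags per Ly6CLow cell (SD, n = 6 pools), with pools from 231 to 250, against 1952 ± 630 per Ly6CHigh cell. BAM (231) and microglia (220) gave nearly the same number of tags. In the aged well, where tags were fewer, the values were 23.9 ± 3.25 in Ly6CLow and 721 ± 310 in Ly6CHigh cells. CD11b, CD11c and I-A/I-E were higher in Ly6CLow than in Ly6CHigh cells without overlap of the pools in the young well, and overlapped in the aged well. CD11b, the integrin of myeloid cells, was 2100 ± 201 tags in young Ly6CLow cells, 1502 ± 119 in Ly6CHigh cells, 737 in BAM and 654 in microglia. In the aged well the order of the first pair was the reverse, with 191 ± 46.6 tags in Ly6CLow and 420 ± 146 in Ly6CHigh cells. In the young well CD11c was 357 ± 43.9 against 34.8 ± 19.9, 12.4 and 2.78, and the 6 Ly6CLow pools (291 to 412) did not overlap those of the other 3 classes. In the aged well CD11c was 27.5 ± 10.4 tags in Ly6CLow and 28.5 ± 30.3 in Ly6CHigh cells, whose pools (3.66 to 86.2) enclosed the Ly6CLow pools, against 2.16 in BAM and 1.04 in microglia. In young pools the I-A/I-E antibody gave 3114 ± 601 tags against 485 ± 420 in Ly6CHigh cells, 1690 ± 449 in BAM and 9.38 in microglia. The lowest young Ly6CLow pool, at 2393 tags, lay below the highest BAM pool, at 2465, so these 2 classes overlapped in MHC class II. In the aged well I-A/I-E was 262 ± 70.4 tags in Ly6CLow cells, 257 ± 351 in Ly6CHigh cells, 371 ± 47.4 in BAM and 2.49 in microglia.

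To ask which cells make up the class, the 634 cells were clustered by RNA alone, without immunoglobulin, ribosomal or mitochondrial genes, which gave 12 sub-clusters. Values of their leading genes describe the clusters and are not results of a test; they are means over cells. A sub-cluster is called after a cell type, with "-like", only where genes of that type's list are among its leading genes.

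Sub-cluster 1 was cDC2-like and the most numerous, with 156 cells (24.6%), 93 young and 63 aged. Cd209a was 12.1 per cell against 0.469 in the other Ly6CLow cells and above 0 in 94.9% of its cells. The other leading genes were Mgl2 (16.5 against 1.25), the chemokine Ccl17 (4.33), which attracts T cells, Lmo1 (1.89), a transcriptional cofactor, and H2-DMb2 (2.44), which loads peptide on MHC class II. Flt3, the growth factor receptor of dendritic cells, was above 0 in 56.4% of its cells, the dendritic cell transcription factor Zbtb46 in 28.8% and Irf4, a cDC2 factor, in 35.9%. Cd74 averaged 340 and H2-Aa 115 per cell. Ccr2, a chemokine receptor of classical monocytes and many cDC2, was above 0 in 91.7% of its cells and Ly6c2 in 3.21%.

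Sub-cluster 2 was nonclassical monocyte-like, with 115 cells (18.1%), 55 young and 60 aged. Ace was 3.97 per cell against 0.112 in the others and above 0 in 93.0% of its cells. Adgre4 (3.23), an adhesion receptor, Fabp4 (3.54), a fatty acid binding protein, Treml4 (2.75) and Cd300e (1.90), an activating receptor, were its other leading genes. All 5 are on the nonclassical list. Spn was above 0 in 88.7% of its cells and Nr4a1 averaged 13.5 per cell. Cd209a was above 0 in 1.74% of its cells, Ly6c2 in 12.2%, and H2-Aa averaged 7.51 per cell.

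Sub-cluster 12 was migratory dendritic cell-like but held only 6 cells. It was led by Ccr7 (34.3 per cell), the receptor that guides dendritic cells to lymph nodes, the cytokine gene Il12b, Cacnb3, Ccl22 and Fscn1, an actin bundler of mature dendritic cells. Type 1 conventional dendritic cells were not seen as a sub-cluster: Xcr1 and Clec9a, which define them, averaged at most 0.0870 and 0.122 per cell in any sub-cluster. The XCR1 antibody gave 5.16 to 16.1 tags per Ly6CLow cell over the young pools and 0.583 to 1.06 over the aged pools. For the CD103 antibody the ranges were 2.61 to 45.9 and 0.696 to 2.67. Neither antibody was among those that passed between sub-clusters below. That test compared whole sub-clusters over pools, left out sub-cluster 8 and could not detect a few such cells inside a sub-cluster. Per young cell, XCR1 and CD103 were highest in sub-cluster 8 (23.5 and 73.25 tags). They were 12.0 and 28.8 in sub-cluster 3, 7.54 and 4.06 in sub-cluster 1, and 4.95 and 2.24 in sub-cluster 2. Whether the class holds scattered type 1 dendritic cells was not tested. Together the dendritic cell-like and nonclassical monocyte-like sub-clusters (1, 2 and 12) held 277 cells, or 43.7% of the class. This count leaves out cells with dendritic cell genes in the unnamed sub-clusters, which are described next.

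Of the other myeloid sub-clusters none was named. Sub-cluster 3 held 110 cells (45 young, 65 aged). It was led by Ccl12 (4.48), a monocyte-attracting chemokine, Ms4a7 (1.56), a BAM gene, the complement gene C1qa (39.6 against 3.30), the lipid carrier Apoe (159 against 13.4) and the interferon-induced Ifit3. Its cells had genes of the BAM list in 26.9% and of the microglial list in 45.5% of cells on average, and H2-Aa at 74.4, so no single type covered them. Sub-cluster 8 (23 cells) was led by the mitosis genes Ube2c and Birc5 and a histone gene, Hist1h2ap, next to S100a9 and Hbb-bs, genes of neutrophils and red cells that were above 0 in 30.4% and 43.5% of its cells. Sub-cluster 9 held 15 cells, all young, with Retnla at 70.4 against 0.785, a secreted protein of alternatively activated macrophages, Lpl, a lipase, and Ptgds, Mgp and Lyz1. Genes of the shared dendritic cell list were above 0 in 38.0% of cells on average in sub-cluster 8 and 36.7% in sub-cluster 9. For the cDC2 list the values were 29.9% and 37.5%, for the BAM list 7.07% and 14.2%, and for the nonclassical list 30.8% and 22.2%. In sub-cluster 1 the 4 lists were at 58.7%, 43.3%, 11.6% and 22.9%.

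The lymphoid sub-clusters held 168 cells. Sub-cluster 4, T cell-like, had 64 cells, 61 of them aged, with a median of 1083.5 raw UMIs. Cd28, Ikzf2, Cd3e, Trac and Ctla4 led it, which are genes of the T cell receptor complex, of its costimulation and of its restraint. Sub-cluster 6, innate lymphoid-like, had 40 cells, 39 of them aged, with a median of 1252 UMIs. Gm20186 (38.3 against 0.290), Rora (8.90), a factor of innate lymphoid cells, 4932438H23Rik, Pard3 and Lif led it. Sub-cluster 7, NK-like, had 40 cells (25 young, 15 aged), with the killing genes Gzma (91.7 against 0.0673) and Prf1 (11.2) and the receptors Klra4, Klra8 and Klra9. Sub-cluster 10, B cell-like, had 12 cells, led by the antibody genes Igkc, Ighm, Jchain, Iglc1 and Iglc2. In 58.3% of its cells Ace was above 0 too, so genes of both types occurred in them, and no doublet caller was run. Sub-cluster 11 (12 cells) was led by Gzmc, Cd7, Xcl1, AC163354.1 and Ctsw, which NK cells and some T cells share, and kept no name. Sub-cluster 5 had 41 cells with a median of 1260 UMIs and the leading genes Gm26917, Tnip3, mt-Co2, mt-Co3 and Tmem119.

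**Figure D2:**
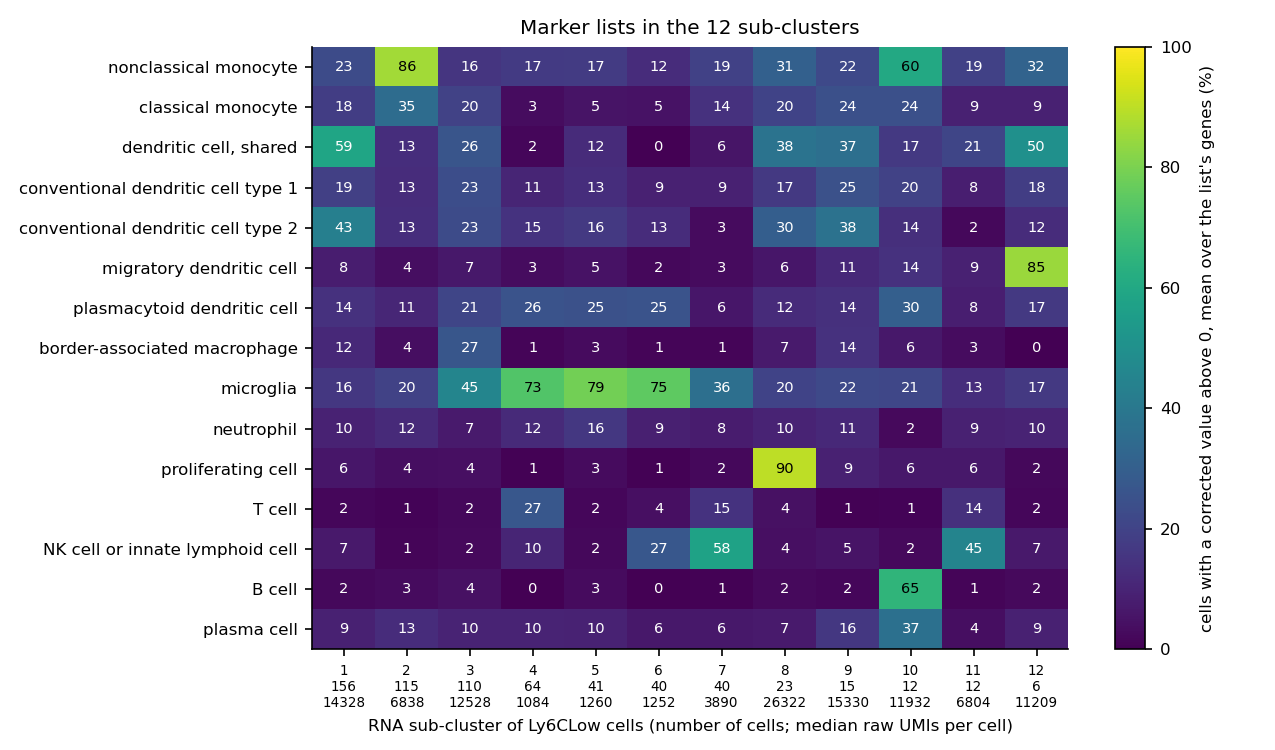
The colour gives the percentage of cells above 0, averaged over the genes of each marker list (rows), in the 12 RNA sub-clusters (columns, with their cell number and median raw UMIs). The nonclassical monocyte list is strongest in sub-cluster 2, the shared dendritic cell list in sub-cluster 1, and the microglial list is high in the shallow sub-clusters 4, 5 and 6 (72.7% to 78.6%).

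The antibodies had no part in the clustering, so they were tested between sub-clusters. In each pool the log2 tags per 1000 tags (plus 1) of a sub-cluster were set against those of the other Ly6CLow cells of the same pool, with an exact two-sided sign-flip permutation test over pools. Of 204 pairs of 6 sub-clusters and 34 antibodies, 42 passed at an adjusted p under 0.05 (20.6%), 17 higher and 25 lower. Sub-cluster 1 had 20 of them (2 higher, 18 lower; 12 pools), sub-cluster 2 had 10 (8 higher, 2 lower; 11 pools) and sub-cluster 3 had 12 (7 higher, 5 lower; 10 pools). For sub-clusters 4, 5 and 6, with 5 or 6 pools, the smallest p the design allows is 0.0625 or 0.03125, and 0 passed. Because a high tag lowers the share of all the others, the test was repeated on raw tags per cell. Of the calls on shares, 7 of 20 in sub-cluster 1, 4 of 10 in sub-cluster 2 and 8 of 12 in sub-cluster 3 passed there in the same direction. In sub-cluster 1 raw tags gave 5 higher and 5 lower, and 3 calls turned sign, with CD45 passing as higher. The counts on shares are therefore not counts of surface differences. The antibodies described here passed in the same direction on both scales except where stated.

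The cDC2-like sub-cluster 1 carried more CD11c and MHC class II and less PD-L1, CD38 and CX3CR1 than the rest. CD11c was a median of 500 tags per cell over the young pools (376 to 561) against 276 (206 to 357) in the other Ly6CLow cells, and 70.2 against 15.1 in the aged well. It was higher in 12 of 12 pools on the scale of raw tags (log2 1.38, adjusted p 0.0111 by the exact permutation test) and in 11 of 12 on the scale of shares (log2 0.56, adjusted p 0.0242). I-A/I-E was 4614 against 2456 tags in the young well and 599 against 192 in the aged well (raw log2 1.22, 12 of 12 pools, exact permutation adjusted p 0.0111). PD-L1, which restrains T cells, was 11.5 against 53.8 tags in the young and 1.60 against 6.63 in the aged well, lower in 12 of 12 pools by 2.19 on both log2 scales (exact permutation adjusted p 0.00766 on shares). CD38 was 18.5 against 101 tags in the young well, lower in 12 of 12 pools.

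The nonclassical monocyte-like sub-cluster 2 showed the opposite PD-L1 and MHC class II values. PD-L1 was a median of 77.0 tags per cell in the young pools (50 to 160) against 29.0 in the other cells, and 12.95 against 4.11 in the aged pools. It was higher in 11 of 11 pools, by 2.29 on the log2 scale of shares (adjusted p 0.00949, exact permutation test) and 1.67 on that of raw tags. I-A/I-E was 474 tags against 3785 in the young and 52.4 against 264 in the aged well, lower in 10 of 11 pools (log2 -2.49, exact permutation adjusted p 0.0125). CD38 was 12.0 against 85.1 tags in the young well and lower in 11 of 11 pools. Ly6C was higher in 11 of 11 pools, 253 against 228 tags in the young well and 33.8 against 20.9 in the aged well, by 0.40 on the log2 scale of raw tags and 1.28 on that of shares. Its tags in the young well stayed below those of Ly6CHigh cells. CX3CR1 and SIRPa, surface proteins of nonclassical monocytes, were higher in 11 of 11 pools as shares (log2 0.96 and 0.95), but on raw tags the differences were 0.15 and 0.10 and did not pass. CD11b, CD44, CD45 and F4/80 were higher as shares and turned to the opposite sign on raw tags.

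Sub-cluster 3 carried macrophage proteins. CX3CR1 was 124 tags per cell against 46.0 in the young and 24.2 against 5.65 in the aged well, higher in 10 of 10 pools (log2 1.19, exact permutation adjusted p 0.0125). The costimulatory CD86 was 73.3 against 29.7 tags in the young well (log2 0.97, 9 of 10 pools). CD64, an Fc receptor of macrophages, F4/80 and the sialic acid receptor CD169 were higher in 10 of 10 pools (log2 0.78, 0.70 and 0.40). I-A/I-E was higher in 9 of 10 pools, by log2 0.54 as a share (exact permutation adjusted p 0.0221) and 0.83 on raw tags (adjusted p 0.0443). High MHC class II was therefore not particular to sub-cluster 1. The adhesion receptor CD44 was lower, 267 against 474 tags in the young well (log2 -1.19, 9 of 10 pools). CD24 was lower as a share (log2 -1.47, 8 of 10 pools) but did not pass on raw tags (log2 -1.22, exact permutation adjusted p 0.0598). Itgax and the MHC class II genes were among the RNA that formed the sub-clusters, so the CD11c and I-A/I-E tags are the protein of clustered genes.

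**Figure D3:**
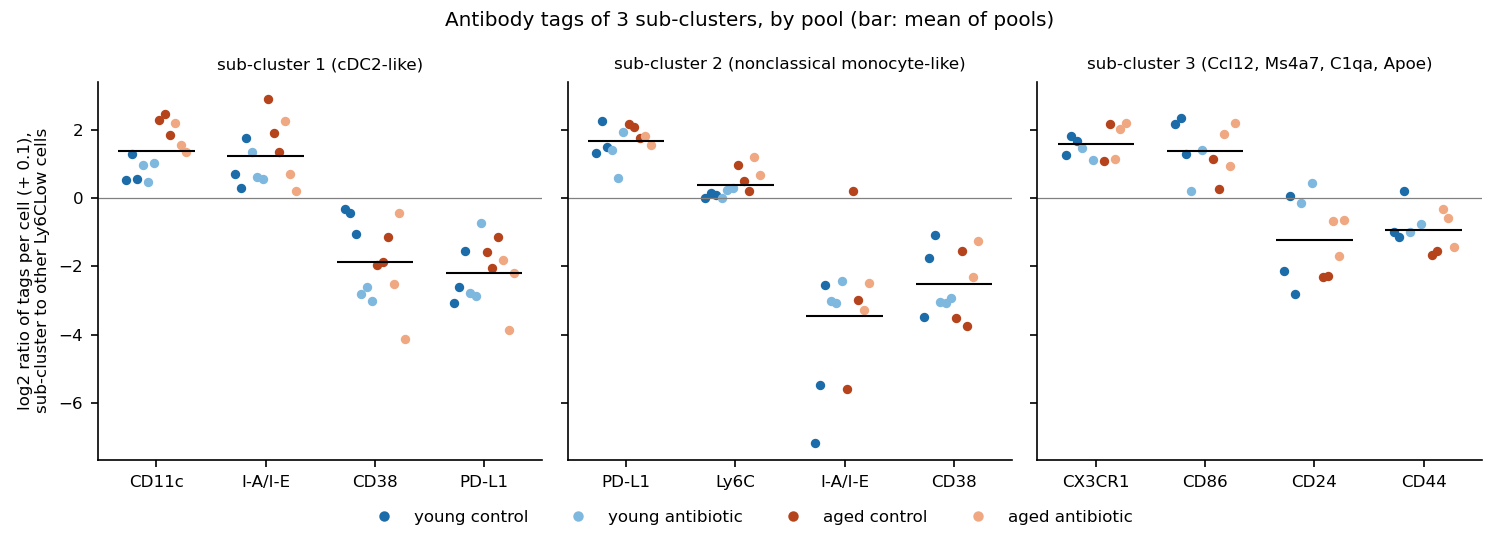
Each point is a pool's log2 ratio of tags per cell (plus 0.1), sub-cluster to the other Ly6CLow cells (y axis), for the named antibodies (x axis) in sub-clusters 1, 2 and 3, coloured by group with the mean as a bar. PD-L1 lies below 0 in all 12 pools of sub-cluster 1 and above 0 in all 11 pools of sub-cluster 2.

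Whether antibiotics or age shifted the class or its make-up was asked next. Ly6CLow cells were 4.67% ± 0.653 of young control, 4.10% ± 1.27 of young antibiotic, 5.76% ± 1.59 of aged control and 5.14% ± 0.142 of aged antibiotic cells (SD, n = 3 pools). For antibiotics the log2 change over both ages was -0.18 (SE 0.26, adjusted p 0.768 in edgeR's quasi-likelihood test), and the exact two-sided permutation p of the share was 0.315. For aged minus young controls it was 0.31 (SE 0.37, edgeR adjusted p 0.541). Neither passed.

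The sub-clusters' shares did not move past the threshold with antibiotics either. The cDC2-like sub-cluster 1 made up 31.5% ± 6.49 of Ly6CLow cells in young controls and 37.7% ± 2.45 after antibiotics, and in aged mice 17.9% ± 7.27 of controls and 17.0% ± 6.13 after antibiotics (SD, n = 3 pools). The shares of the nonclassical monocyte-like sub-cluster 2, in the same order, were 20.7% ± 1.24, 19.7% ± 4.08, 16.3% ± 6.57 and 17.2% ± 10.7. For antibiotics over both ages the difference was 2.58 percentage points in sub-cluster 1 (exact permutation p 0.450, adjusted 0.878) and -0.0530 in sub-cluster 2 (p 1.00). The exact test called 0 of 12 sub-clusters, and 0 had an unadjusted p under 0.05.

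Between the wells the mixture differed. Within controls alone 3 pools against 3 give 20 arrangements and no p below 0.1, so age was also taken over both arms, an alternative chosen after seeing the data, with 400 arrangements and a smallest p of 0.005. On this test 3 of 12 sub-clusters passed: sub-cluster 1 was 17.2 percentage points lower in aged pools, T cell-like sub-cluster 4 was 15.4 points higher and innate lymphoid-like sub-cluster 6 was 11.3 points higher (each exact permutation p 0.005, adjusted 0.02). Without young control pool 2 the number was 5. Sub-cluster 4 was 1.15% ± 1.99 of young control and 15.7% ± 9.31 of aged control Ly6CLow cells. Sub-cluster 6 was listed in 0 young control cells of the class and made up 13.2% ± 6.54 of aged control ones. Sub-cluster 2 differed by -3.49 points (p 0.355). Sub-clusters 4 and 6 were the shallowest, and together with sub-cluster 5 they held 6.20% of young and 35.6% of aged Ly6CLow cells. When only sub-clusters 1, 2, 3, 8, 9 and 12 were counted, sub-cluster 1 was 10.8 points lower in aged pools (exact permutation p 0.020, adjusted 0.06), sub-cluster 3 was 12.3 points higher (p 0.040, adjusted 0.08) and 0 passed. In cells of at least 2000 UMIs 0 passed either, and sub-cluster 1 was then 6.49 points lower. The part of depth in these shares was not tested.

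**Figure D4:**
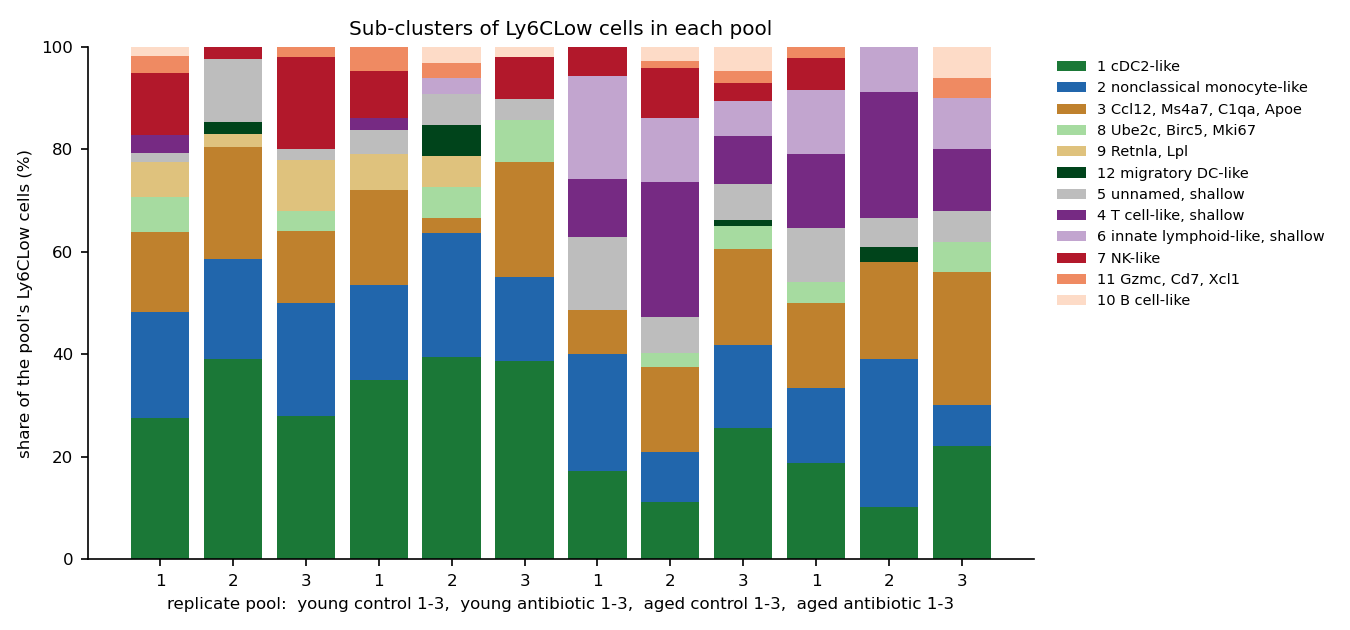
Stacked bars give the share of each sub-cluster among the Ly6CLow cells of each of the 12 pools (y axis, percent), ordered by group and replicate. Sub-clusters 4 and 6 fill a visible part of each aged pool, while lymphoid sub-clusters in all make up 2.44% to 20.7% of young and 26.7% to 52.8% of aged pools.

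For antibiotics over both ages limma called 0 of 8613 genes in Ly6CLow cells (0%), and 525 had a p under 0.05 before adjustment. The genes of smallest p were Ccl2, a monocyte-attracting chemokine, and the metallothionein Mt1, with log2 changes of 0.91 (SE 0.17, limma adjusted p 0.332) and 0.83 (SE 0.17, adjusted p 0.367), which did not pass. Ccl2 was 2.74, 1.78 and 1.96 in the young control pools and 3.02, 2.24 and 3.90 in the young antibiotic pools. It was 0.629, 0.986 and 0.884 in the aged control pools and 2.56, 1.62 and 2.40 in the aged antibiotic pools. The aged arms did not overlap, and the young arms did; in aged pools alone the log2 change was 1.34 (SE 0.24, limma adjusted p 0.205). Rgs1, a regulator of chemokine signalling, was next in aged pools (log2 0.98, adjusted p 0.643). For young pools Sparc and Ccrl2 had the smallest p and for the difference between the ages Apoe and Tsnax, with limma adjusted p from 0.979 to 1.00.

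The 5 markers were also not called. Over both ages the antibiotic change on the log2 scale was -0.28 for Ace, -0.59 for Treml4, -0.21 for Spn, -0.44 for Cd209a and -0.30 for Itgax, with limma adjusted p from 0.792 to 0.923. In each of the 26 marker and pathway lists 0 genes were called. The median change was -0.35 over the 12 nonclassical monocyte genes, 0.03 over the 5 cDC2 genes tested, 0.17 over 10 MHC class II genes and 0.08 over 18 interferon response genes, against 0.06 over all genes.

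When the 6 lymphoid and shallow sub-clusters (4, 5, 6, 7, 10 and 11) were left out, an alternative chosen after seeing the data, 1 gene was called for antibiotics. Dynll1, a dynein light chain, fell by 1.15 on the log2 scale in aged pools (limma adjusted p 0.0282) and by 0.78 over both ages (adjusted p 0.0457). In all Ly6CLow cells it was 3.17, 2.98 and 2.68 in young controls and 1.93, 2.33 and 2.35 after antibiotics, and in aged mice 1.77, 2.11 and 2.22 in controls and 1.23, 1.14 and 1.34 after antibiotics. Antibiotic pools were lower than control pools of their age without overlap, yet the change of -0.55 over both ages did not pass there (limma adjusted p 0.367).

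Between aged and young controls limma called 65 of 8613 genes in Ly6CLow cells (0.755%), 47 higher and 18 lower. The count moved with each control pool that was left out, to 28, 34 and 21 without young control pools 1, 2 and 3, and to 24, 19 and 297 without aged control pools 1, 2 and 3. Of the 47, 43 had their highest mean in sub-clusters 4, 5 or 6, and 11 were mitochondrial. Of the 18 lowered genes 11 were highest in sub-cluster 9, whose cells were all young, and 0 in sub-clusters 4, 5 or 6. Gm20186 was 0.121, 0.244 and 0.200 in young control pools and 9.46, 4.53 and 1.93 in aged control pools (log2 4.25, SE 0.46, limma adjusted p 0.000329), and its mean in sub-cluster 6 was 38.3. Rora (log2 3.85, limma adjusted p 0.00167), Il2ra (3.24, a chain of the interleukin 2 receptor), Gata3 (2.78) and Il7r (2.40), genes of innate lymphoid and T cells, were likewise highest in sub-cluster 6. Among the lowered genes was Batf3, a dendritic cell transcription factor, with 0.552, 0.512 and 0.6 in young control and 0.0571, 0.181 and 0.256 in aged control pools (log2 -1.62, limma adjusted p 0.0280). Ccl2 (-1.32), the leukotriene receptor Ltb4r1 (-1.21) and the nuclear envelope gene Lemd2 (-1.18) fell too. The aged control pools enter this comparison and that of antibiotics in aged mice, so the Ccl2 values of both share them. The immunoglobulin chain Igkc had the largest change (log2 6.62, SE 1.39, limma adjusted p 0.0312) but was 0.686 in aged control pool 1 against 40.8 and 42.7 in the other two, and it was highest in sub-cluster 10. Gm20186, Rora, Il2ra and Il7r passed whichever pool was left out, while Gata3, Batf3, Ccl2, Ltb4r1, Lemd2 and Igkc each missed the threshold without at least 2 of the control pools in turn.

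The lists of other cell types overlapped between the groups. Of 9 T cell genes and of 4 B cell genes tested 0 were called for age, with medians of 1.07 and 1.53 against -0.21 over all genes. Of 10 NK and innate lymphoid genes 3 were higher (Il7r, Gata3 and Rora), with a median of -0.18. The summed level of the 9 T cell genes ran from 0.0732 to 1.66 in young control and from 0.965 to 4.26 in aged control pools, that of the 10 NK and innate lymphoid genes from 3.05 to 23.7 and from 8.83 to 18.3, and that of the 7 B cell genes from 0.14 to 0.690 and from 0.143 to 1.96. Of these genes Ms4a1 was at 0 in the young control group. Cells with fewer than 2000 raw UMIs made up 4.38% of young and 31.7% of aged Ly6CLow cells.

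Without the 6 lymphoid and shallow sub-clusters limma called 0 genes for age; the smallest adjusted p was 0.0597, and 442 genes had a p under 0.05 before adjustment. Of the 47 raised genes 31 were still tested, and their median log2 difference went from 1.36 to 0.24. The 18 lowered genes all kept their sign, and their median went from -0.77 to -0.30. Of the 31 raised genes 21 kept their sign and 10 turned, among them Il7r (-0.31) and Fosb (-0.17), an immediate early gene. Fewer cells were left in this fit. Of the marker lists, MHC class II had a median of -0.59 and cDC2 of -0.72 for age in all Ly6CLow cells, against -0.21 over all genes, with 0 genes called in either; H2-Aa was 57.4 ± 8.82 in young control and 37.7 ± 12.3 in aged control pools.

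**Figure D5:**
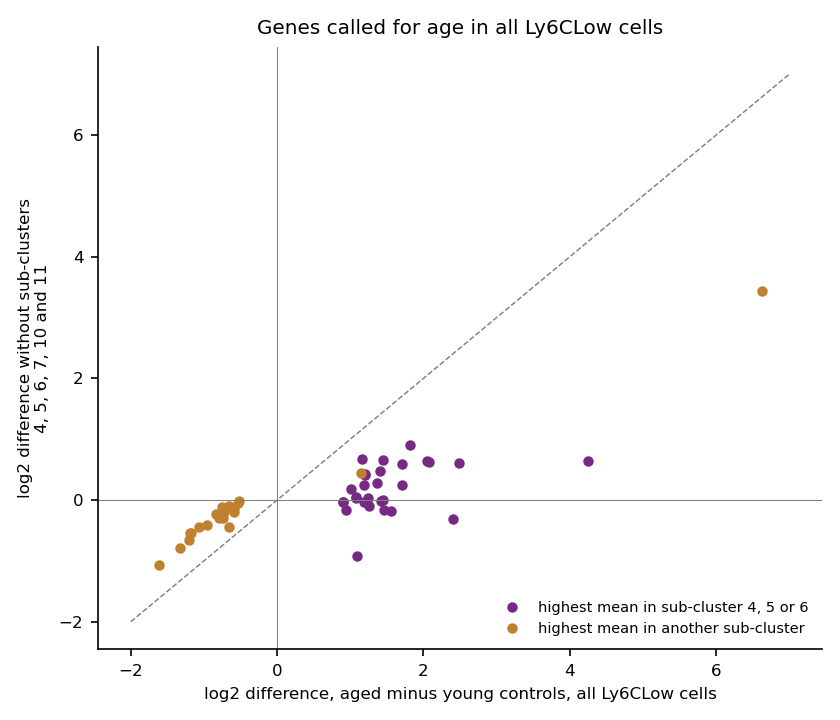
Each point is 1 of the genes called for age in controls that could still be tested, with its log2 difference in all Ly6CLow cells (x axis) against that without sub-clusters 4, 5, 6, 7, 10 and 11 (y axis), coloured by the sub-cluster of highest mean. The raised genes shrink from a median of 1.36 to 0.24.

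Antibody tags of the whole class followed the same division. For antibiotics over both ages edgeR called 0 of 34 antibodies (0%), with 2 at a p under 0.05 before adjustment, and DESeq2 called 1, the macrophage antigen F4/80 (log2 0.43, DESeq2 adjusted p 0.0364). For aged minus young controls edgeR called 15 (44.1%), 11 higher and 4 lower. Lymphocyte antigens were among the higher ones: CD8a with a log2 difference of 2.93 (SE 0.47, edgeR adjusted p 0.000625), CD4 with 2.94 (SE 0.74, adjusted p 0.0114), CD25 with 1.58 and CD3 with 1.40, each without overlap of the pools. KLRG1 (0 tags in young and 13 in aged control cells of the class), CD335 (1 and 30) and CXCR4 (0 and 3) were near 0 throughout the young well, so no fold is given. I-A/I-E was lower by 0.61 on the log2 scale (edgeR adjusted p 0.0206), as were CCR2 (-0.96), CD24 (-0.83) and CD11b (-0.48), the last with overlapping pools. CCR2 rested on 333 tags in young and 28 in aged control cells of the class. In the young well it gave 2.31 tags per Ly6CLow cell, 2.47 in Ly6CHigh cells, 1.95 in CD8+ cells and 1.67 in microglia. With values this low and alike, its difference is not given as one of surface CCR2. On centred log ratios limma called 21 antibodies, 6 higher and 15 lower, and the median over the 34 antibodies was -0.68 there against 0.03 in edgeR. The 15 antibodies kept their direction on this scale, and 10 of them passed; CD25 (0.86, limma adjusted p 0.0506) and CD3 (0.79, adjusted p 0.0860) did not. Without young control pool 2 edgeR called 5 antibodies and CD4 missed the threshold (adjusted p 0.0523), and without aged control pool 1 it called 8. Without the 6 sub-clusters 5 antibodies were called, and in cells of at least 2000 UMIs 6.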

How the data were processed

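The authors deposited an RNA table of corrected UMI values per gene and cell, named SCT in the file, a table of raw antibody tag counts, barcodes of the antibodies, and metadata with raw UMI and tag counts, pool and cell type. The corrected values are whole numbers but a score, not raw counts, since their sums equal the corrected totals of the deposited metadata. Cell Ranger 3.0.2, Seurat 3.0.1 and mm10 are named in the submitters' processing notes. How cells were filtered is not given in the sources used here. Another 33 metadata columns went unused. The class is that of the deposited annotation. No doublet caller was run; each cell carries 1 hashtag in the annotation.

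Genes were tested with limma 3.58.1 (R 4.3.3, trended prior) on all 12 pools, as log2 of the pool mean plus 0.05, if their mean over pools reached 0.05. Tags summed per pool were tested with edgeR 4.0.16 and TMM factors, with DESeq2 1.42.0 and limma on centred log ratios as alternatives. Cell numbers per class were tested with edgeR on pool totals. Adjustment was by Benjamini-Hochberg within a contrast, with a threshold of 0.05. Sub-clusters came from Leiden clustering (leidenalg 0.10.2, resolution 0.6, 15 neighbours, 20 principal components, 2000 variable genes; scikit-learn 1.9.0, Python 3.11.15). Antibodies were tested between sub-clusters in pools with at least 5 cells on both sides. Steps were tested on simulated data.

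Genes were named by rule: the markers, for each class comparison the 8 genes furthest above and 4 furthest below without overlap, up to 4 raised and 4 lowered called genes per contrast or the 2 of smallest p, and 5 leading genes per sub-cluster. The members, lists and rule were chosen with earlier results of these data known. Dynll1 was named after its values were seen.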

Additional observations from a re-analysis of the deposited data

How the results depend on the processing

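No paired analysis was possible because control and antibiotic pools carry different hashtags and no label links a young pool to an aged one. Without sub-clusters 4, 5, 6, 7, 10 and 11, antibiotics gave 1 gene in aged mice and 1 over both ages (Dynll1), and age 0 genes and 5 antibodies. The mean of log values per cell gave 2 genes for antibiotics over both ages (Tgfbi, log2 0.40, and Fkbp5, 0.29; limma adjusted p 0.0424 each) and 311 for age, no filter gave 36 for age, and cells of at least 2000 UMIs gave 0 genes and 6 antibodies for age. DESeq2 called 1 antibody for antibiotics in aged mice and 1 over both ages (F4/80, log2 0.67, adjusted p 0.0248, and 0.43, adjusted p 0.0364). The log2 change of the class's share turned sign for antibiotics in young mice with TMM factors (0.035). The antibiotic change in aged minus that in young mice turned sign among cells other than microglia (-0.11) and with TMM (-0.24). The share's change for age turned sign among cells other than microglia (-0.23). Fosb for age was -0.055 in deep cells and -0.17 without the 6 sub-clusters, where Il7r was -0.31. In 1 well at a time 0 pairs of sub-cluster and antibody passed (young) and 0 (aged), with at most 6 pools. Sub-cluster 2 changed by 0.267 points with antibiotics at resolution 0.3. For age over both arms 0 sub-clusters passed in deep cells, where sub-cluster 2 was 5.76 points higher, and 0 among monocyte, dendritic and macrophage sub-clusters, where it was 5.72 points higher; sub-clusters 4, 5 and 6 had no match in deep cells. Cells with 3 or more list genes were 49.2% (nonclassical), 29.0% (cDC2) and 13.4% (shared dendritic), and deep cells with 2 or more were 53.3% (cDC2) and 37.8% (shared dendritic). The cause of these changes was not tested.

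Leaving out each pool in turn, genes called for age ran from 19 (without aged control 2) to 297 (without aged control 3) and antibodies for age from 5 to 16. Antibodies called for antibiotics ran from 0 to 1 in young mice and from 0 to 1 for the difference, the 1 being CD38 without young control 1. The log2 antibiotic change of the class's share in aged minus that in young mice ran from -0.18 to 0.30. The share's log2 difference between aged and young controls ran from 0.165 to 0.516. The antibiotic change of sub-cluster 2 ran from -3.002 to 2.24 points, and sub-clusters called for age from 3 to 5. In the aged well the median of 603.5 tags per Ly6CLow cell limits all antibody values.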

Other observations

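Interferon and chemokine genes were spread unevenly over the sub-clusters of Ly6CLow cells. These genes were part of the RNA that formed the sub-clusters, so the values, which are means of the corrected UMI value over cells, describe them without a test. Sub-cluster 3 had the highest mean of the interferon-induced genes Ifit3 (1.45, against 0.192 in the cDC2-like sub-cluster 1 and 0.0522 in the nonclassical monocyte-like sub-cluster 2), Isg15 (1.5, 0.455 and 0.209) and Bst2 (4.85, 1.26 and 0.739). The T cell-attracting Cxcl10 was 3.28, 1.15 and 0.191 in the same order. Il1b, a cytokine gene of activated myeloid cells, was 14.9, 19.6 and 15.3, and at most 0.1 in the innate lymphoid-like and NK-like sub-clusters. Ccl2 was 4.26 in sub-cluster 1 and 3.53 in sub-cluster 3, but 0.365 in sub-cluster 2. Ccl5 was 131 in the NK-like sub-cluster 7, 35.3 in sub-cluster 11 and 138 in the 6 migratory dendritic cell-like cells, against 3.39 or less in sub-clusters 1, 2, 3 and 8.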
